A study of Mus musculus with 20 samples.

Results

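The genes described here encode the nuclear subunits of the mitochondrial respiratory chain and of ATP synthase, measured by RNA sequencing in the heart apex of mice with and without cardiac AL amyloidosis. They were taken by name: Nduf genes of the a, b, c, s and v series together with Ndufab1 (complex I), the Uqcr genes with Cyc1 (complex III), the Cox4i, Cox5, Cox6, Cox7 and Cox8 genes (complex IV) and the Atp5 genes (ATP synthase). The rule gave 86 rows with 82 different symbols out of 25308 genes in the count table. Complex I had 37 rows, complex III 10, complex IV 20 and ATP synthase 19. The complex IV rows include Cox6c2, which is annotated as a processed pseudogene. Ndufa4 carries a complex I name, but its protein belongs to complex IV, and it was counted there.

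The respiratory chain passes electrons from NADH and succinate to oxygen through complexes I to IV and pumps protons out of the mitochondrial matrix, and ATP synthase uses the return of these protons to make ATP. A contracting heart depends on this supply. The core catalytic subunits are encoded partly in the mitochondrial genome and partly in the nucleus, whereas the small accessory, or supernumerary, subunits are all nuclear.

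The study compared hearts with light chain amyloid deposits with hearts exposed to the same circulating light chain without deposits and with control hearts. AL mice (n = 9) were λS-DH mice with amyloid deposits, started by a single intravenous injection of preformed fibrils or of the variable domain fragment; which of these a mouse received was not given in the sources used here. LS mice (n = 4) had the same genotype, labelled DH-lambdaS, were not induced, and had no deposits. Ctrl mice (n = 7) were DH mice, labelled DH-LMP2A. Both genotypes carry the DH-LMP2A background, which raises plasma cell numbers and makes no immunoglobulin heavy chain. Ctrl mice secrete polyclonal mouse kappa light chains, and λS-DH mice secrete a human lambda light chain knocked into the Ig kappa locus, which is active in the B cell lineage. The libraries came from 2 sequencing runs, given as batches in the labels. The first run held AL1 to AL7, LS1 to LS4 and Ctrl1 to Ctrl4, and the second AL8, AL9 and Ctrl5 to Ctrl7, so LS mice were only in the first run. Ages and sexes of single mice were not given, and each library was taken as 1 mouse. Apical heart tissue contains several cell types, and in such bulk samples fewer cells of a type and less RNA per cell cannot be told apart.

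Total counts ranged from 7867642 to 62668146 per library, and the 5 libraries of the second run, with at most 11794615, were the shallowest. The subunit genes took 2.43% to 3.85% of all counts. A count of 3 in a library, the limit that a count of 0 allows, corresponded to 0.0479 to 0.381 CPM, the usual unit of counts scaled by library size, with counting error only. The summed CPM of the 10 cardiomyocyte markers in the first run was 49500 to 63400 in AL, 67200 to 74300 in LS and 63400 to 71700 in Ctrl mice, with no marker at 0. The 8 liver genes examined, normally made by hepatocytes, summed to 38.5 to 101 CPM in AL, 51.0 to 255 in LS and 93.8 to 390 in Ctrl mice of that run.

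Of the 86 rows, 82 passed the filter on low counts and were tested among 14477 genes. The other 4 were Cox8c, Cox7b2, Cox6c2 and a second Atp5o row, ENSMUSG00000116933. Cox8c, the testis isoform of subunit VIII, was listed at 0 in every mouse. Cox7b2 had 0 to 0.241 CPM, the pseudogene Cox6c2 0 to 0.197 CPM, and that Atp5o row 0 to 0.0187 CPM. Atp5a1, Ndufs3 and Uqcrc1 each had 2 rows with near-equal values, which share reads, so the level of either row is uncertain and the pair is not independent.

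Levels per kilobase of transcript spread widely among the subunits. Among single rows, Atp5b, the catalytic β subunit of ATP synthase, was highest with a mean of 2048 CPM per kb over the 20 mice. It was followed by Cox4i1 with 1493, Ndufa4 with 1205 and Cox6a2 with 1174 CPM per kb. Both Atp5a1 rows share reads and had 762.1 and 744.4 CPM per kb, so the place of Atp5a1 in this order is uncertain. Cox8a had 63.6 CPM per kb and Cox6a1 44.6 CPM per kb. Cox4i2, the subunit IV isoform known from lung and hypoxia, had 5.70 CPM per kb.

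Promoter sequence was looked at because nuclear respiratory genes are known for a few shared regulatory elements. RefSeq promoters of the GRCm38.p6 build, 250 bases before to 50 bases after the start, were matched for 66 of the 82 symbols. GCATGCGC, a core site of nuclear respiratory factor 1 (NRF1), stood on either strand in 9 of the 66 (13.6%) and in 824 of 27025 genes (3.05%). ATGGCGGC, a YY1 site, was found in 6 (9.09%), all of complex I, against 2.60% of all genes. CCGGAAGT, an ETS site bound by GABP, was found in 5 (7.58%) against 4.31%, and TCAAGGTCA, bound by estrogen-related receptors (ERR), in 1 (1.52%) against 0.466%. GCGCATGCGC holds the NRF1 site on both strands, and such a pair was counted once per gene. The 4 promoters below are shown because they hold these elements; each runs from 100 bases before the start to 20 bases into the transcript, 5′ to 3′ on the gene's strand (minus for all 4), with the motif in capitals.
Ndufa8, chr2:36049319-36049438, NRF1: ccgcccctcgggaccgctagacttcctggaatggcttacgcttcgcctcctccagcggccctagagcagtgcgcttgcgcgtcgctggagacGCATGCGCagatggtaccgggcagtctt
Atp5k, chr5:108434380-108434499, NRF1 on both strands: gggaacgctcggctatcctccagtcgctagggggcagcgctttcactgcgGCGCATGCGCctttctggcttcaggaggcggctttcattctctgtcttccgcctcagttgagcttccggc
Uqcr11, chr10:80406802-80406921, ETS and then NRF1: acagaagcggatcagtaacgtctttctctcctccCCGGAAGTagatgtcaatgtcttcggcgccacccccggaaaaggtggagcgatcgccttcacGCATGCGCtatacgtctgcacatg
Atp5g3, chr2:73911307-73911426, ERR on the reverse strand: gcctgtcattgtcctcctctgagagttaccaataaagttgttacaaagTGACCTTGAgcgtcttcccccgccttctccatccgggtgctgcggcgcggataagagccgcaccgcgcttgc
Of the 10 genes higher in AL than in Ctrl mice (described next) that had a promoter in the table, 2 held the NRF1 site, Ndufa8 and Atp5k, and none held the other motifs.

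In AL compared with Ctrl mice, with the sequencing run as a term, 13 subunit genes rose slightly, Atp5e and Cox4i2 most, and Ndufs1, Uqcrc2 and Atp5a1 fell. At a false discovery rate (FDR) of 0.05 in edgeR's quasi-likelihood test, 13 of 82 rows were higher (15.9%) and 4 were lower (4.88%), where 10.7% of all genes tested were higher and 15.4% were lower. None passed the further requirement of an absolute log2 fold change of 0.58, which 7.81% of all genes met. The median log2 fold change was 0.122, with 58 of 82 above 0, against 0.0125 over all genes, but it was -0.038, with 33 of 82 above 0, once a trend of counts on transcript length was removed for each mouse. The number of higher members was 3 without AL8 and 32 without Ctrl7, which moved it by over 1.5 times. Without the 5 Ctrl and LS mice with most liver transcripts (Ctrl1, Ctrl3, Ctrl4, LS1 and LS3) none passed in either direction, with a median of 0.146 and 67 of 83 above 0, and over all genes the calls fell to 443 higher and 540 lower from 1556 and 2236. With ComBat-seq in place of the run term none passed either, with a median of 0.118 and 59 of 82 above 0, where all genes gave 341 higher and 448 lower.

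By complex, the medians of AL against Ctrl were 0.121 for complex I, 0.0773 for complex III, 0.152 for complex IV and 0.132 for ATP synthase, and all 4 were negative with the length term, at -0.0331, -0.0491, -0.0299 and -0.0666. By module, the 8 rows of complex I core subunits had a median of -0.0624, or -0.161 with the length term. The 29 supernumerary rows had 0.192, or 0.021 with the length term. In ATP synthase the set called F1 head here holds Atp5a1 and Atp5b, of the catalytic head, and the rotor stalk subunits Atp5c1, Atp5d and Atp5e. Atp5a1 counts in it with both of its rows, which share reads. The set had a median of -0.0969 (-0.183 with the length term), and the 5 membrane subunits of the Fo part had 0.232 (0.038).

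**Figure D1:**
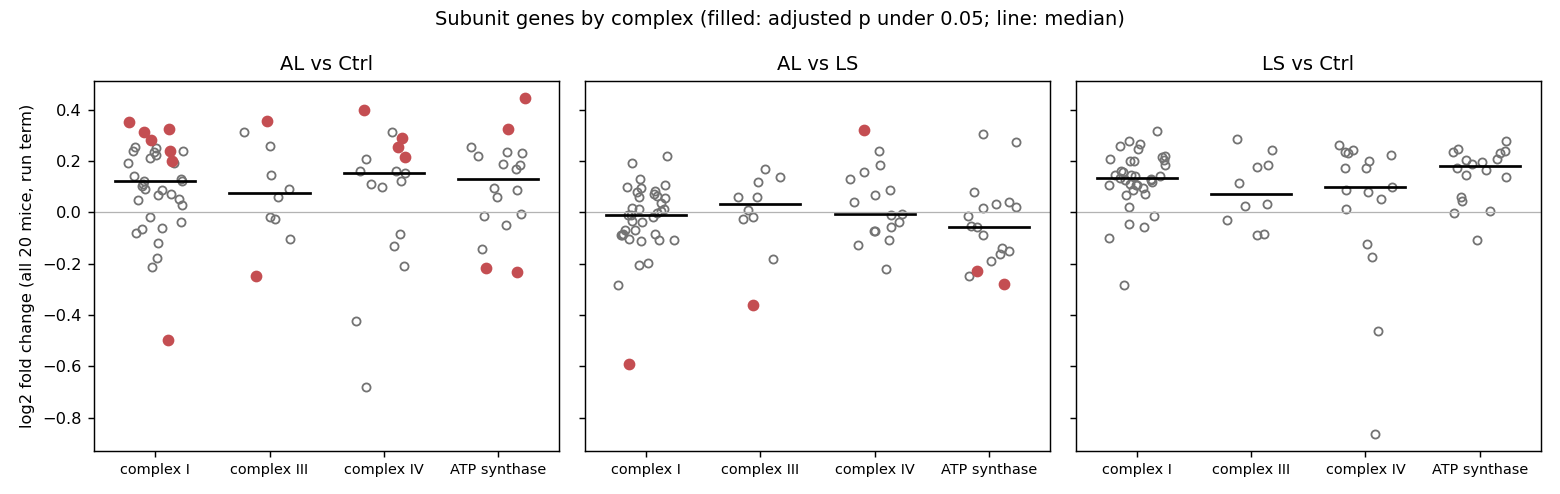
Log2 fold change of each subunit row, grouped by complex, in the 3 comparisons (panels AL vs Ctrl, AL vs LS and LS vs Ctrl). Lines mark the medians, and points past an FDR of 0.05 are filled: 17 rows when AL was compared with Ctrl, 5 with LS, and none for LS compared with Ctrl.

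Ndufs1, the largest core subunit of complex I and carrier of iron-sulfur clusters of its matrix arm, changed most clearly. The gene (ENSMUSG00000025968) lies on chromosome 1 at 63143596 to 63176833, minus strand, GRCm38. In the first run AL mice had 521.5 to 738.4 CPM with a median of 641.1. The LS mice had 919.6, 925.4, 903.6 and 1057 CPM, and the Ctrl mice 840.2, 799.3, 983.9 and 888.4 CPM. AL8 and AL9, of the second run, had 628.0 and 401.9 CPM, and the Ctrl mice of that run 759.1, 743.5 and 782.5 CPM. Every AL mouse was thus below every LS mouse and every Ctrl mouse of either run. edgeR gave a log2 fold change of -0.50 (SE 0.09, FDR 0.000613) against Ctrl and -0.59 (SE 0.10, FDR 0.000709) against LS, and the latter passed the fold requirement. Both calls held without each of the 20 mice in turn. The call against Ctrl was lost with ComBat-seq (-0.49) and without the 5 mice with most liver transcripts (-0.45), and that against LS with ComBat-seq (-0.62).

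Of the other nuclear core subunits of complex I, the following did not pass in AL against Ctrl. Ndufv1, the NADH-binding flavoprotein subunit, had a log2 fold change of -0.06 (FDR 0.548), and its partner Ndufv2 had 0.05 (FDR 0.773). Ndufs7 had 0.09 (FDR 0.523), Ndufs8 0.07 (FDR 0.57), and the 2 Ndufs3 rows -0.07 and -0.08 (FDR 0.669 and 0.58). The values of these 6 rows lay between -0.08 and 0.09.

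Of the 29 supernumerary rows, 6 were higher in AL than in Ctrl mice (20.7%) and none was lower, where all genes gave 10.7% and 15.4%. Ndufb7, a subunit of the membrane arm on the intermembrane side (chromosome 8 at 83566671 to 83571626), had 167.2 to 240.9 CPM with a median of 185.3 in AL mice of the first run. The LS mice had 143.9, 176.9, 186.1 and 148.6 CPM and the Ctrl mice 159.5, 136.4, 162.4 and 136.7 CPM. For the second run, AL8 and AL9 had 184.6 and 147.9 CPM and the Ctrl mice of that run 145.9, 117.7 and 166.7 CPM. AL and Ctrl mice did not overlap in the first run and did in the second, and AL and LS mice overlapped. The log2 fold change against Ctrl was 0.33 (SE 0.09, FDR 0.0164).

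The other 5 were Ndufv3 with a log2 fold change of 0.35 (FDR 0.0211), Ndufa13, also known as GRIM-19, with 0.32 (FDR 0.0182), Ndufa2 with 0.28 (FDR 0.0369), Ndufa8 with 0.24 (FDR 0.0393) and Ndufb10 with 0.20 (FDR 0.0458). In the 20 fits that each left out a mouse, the calls of Ndufb7 and Ndufa13 held in all and that of Ndufv3 in 19. Those of Ndufa2, Ndufa8 and Ndufb10 held in 12, 7 and 2 of these fits. With the length term 2 of the 6 still passed, Ndufv3 at 0.27 and Ndufa13 at 0.22. With that term Ndufb2 (-0.40) and Ndufa9 (-0.27), an accessory subunit of the matrix arm, passed as lower.

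In complex III, Uqcrc2, core protein 2 of the matrix-facing domain, was lower in AL mice. The gene (ENSMUSG00000030884) lies on chromosome 7 at 120635176 to 120659524. AL mice of the first run had 796.5 to 967.9 CPM with a median of 815.0. The LS mice had 1026, 1080, 1035 and 1207 CPM, and the Ctrl mice 952.2, 890.0, 1077 and 1037 CPM. AL8 and AL9 of the second run had 845.6 and 504.2 CPM and the Ctrl mice of that run 819.7, 779.6 and 933.9 CPM. All first-run AL mice were below all LS mice, and they overlapped with Ctrl mice in both runs. The log2 fold change was -0.36 (SE 0.10, FDR 0.0178) against LS and -0.25 (SE 0.09, FDR 0.0458) against Ctrl by edgeR. The call against LS held in 19 of the 20 fits that left out 1 mouse, and that against Ctrl in 6 of 20.

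Cyc1 and Uqcrfs1, the cytochrome c1 and the Rieske iron-sulfur subunits that carry the electrons of complex III, had log2 fold changes of 0.15 (FDR 0.174) and 0.09 (FDR 0.421) against Ctrl. Uqcr10, a small subunit beside cytochrome c1, was higher at 0.36 (SE 0.13, FDR 0.0487), a call that held in 2 of the 20 fits without 1 mouse. Uqcr10 had 240.6 to 325.7 CPM in AL mice of the first run, against 192.3, 192.9, 226.5 and 212.3 CPM in Ctrl mice, without overlap. In the second run the groups overlapped, with 137.9 and 108.2 CPM in AL8 and AL9 and 80.32, 65.73 and 151.9 CPM in Ctrl mice. Uqcr11, another small subunit, had 0.32 (FDR 0.119).

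In ATP synthase, Atp5a1, the α subunit of the F1 head, was lower on both of its rows. The row ENSMUSG00000025428 had 1582 to 1814 CPM with a median of 1719 in AL mice of the first run. The LS mice had 1935, 2013, 1942 and 2083 CPM, and the Ctrl mice 1949, 1853, 2104 and 2042 CPM. AL8 and AL9, of the second run, had 1861 and 1349 CPM, and the Ctrl mice of that run 1900, 1719 and 2106 CPM. AL mice were below all LS and Ctrl mice in the first run, and AL8 overlapped with Ctrl mice in the second. edgeR gave a log2 fold change of -0.23 (SE 0.06, FDR 0.0133) against Ctrl and -0.23 (SE 0.08, FDR 0.0346) against LS. The row ENSMUSG00000116276 gave -0.22 (FDR 0.0237) and -0.28 (FDR 0.0164). Against Ctrl the calls of the 2 rows held in 20 and 17 of the 20 fits without 1 mouse, and against LS in 13 and 19.

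Atp5b, which forms the head together with Atp5a1, had -0.14 (FDR 0.112) against Ctrl over all mice and -0.19 (FDR 0.00965) in the first run alone. Atp5e, the ε subunit of the rotor stalk (chromosome 2 at 174461072 to 174464105), had the largest positive value of the 82 rows. AL mice of the first run had 262.8 to 383.5 CPM with a median of 296.2. The LS mice had 210.3, 281.6, 260.1 and 244.5 CPM and the Ctrl mice 212.7, 213.6, 237.8 and 220.1 CPM. For the second run, AL8 and AL9 had 149.5 and 89.85 CPM and the Ctrl mice of that run 83.27, 59.76 and 140.7 CPM. AL mice were above Ctrl mice in the first run, and every second-run mouse was below every first-run mouse. The log2 fold change against Ctrl was 0.45 (SE 0.15, FDR 0.0294), and with the length term it did not pass.

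The 3 genes of the c ring encode the same mature protein and differ in their import signal. Atp5g1, Atp5g2 and Atp5g3 had log2 fold changes of 0.22 (FDR 0.174), 0.06 (FDR 0.762) and -0.004 (FDR 0.982) against Ctrl. Atp5k, subunit e at the dimer interface of ATP synthase, was higher at 0.32 (SE 0.12, FDR 0.0493), a call that held in 3 of the 20 fits without 1 mouse.

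**Figure D2:**
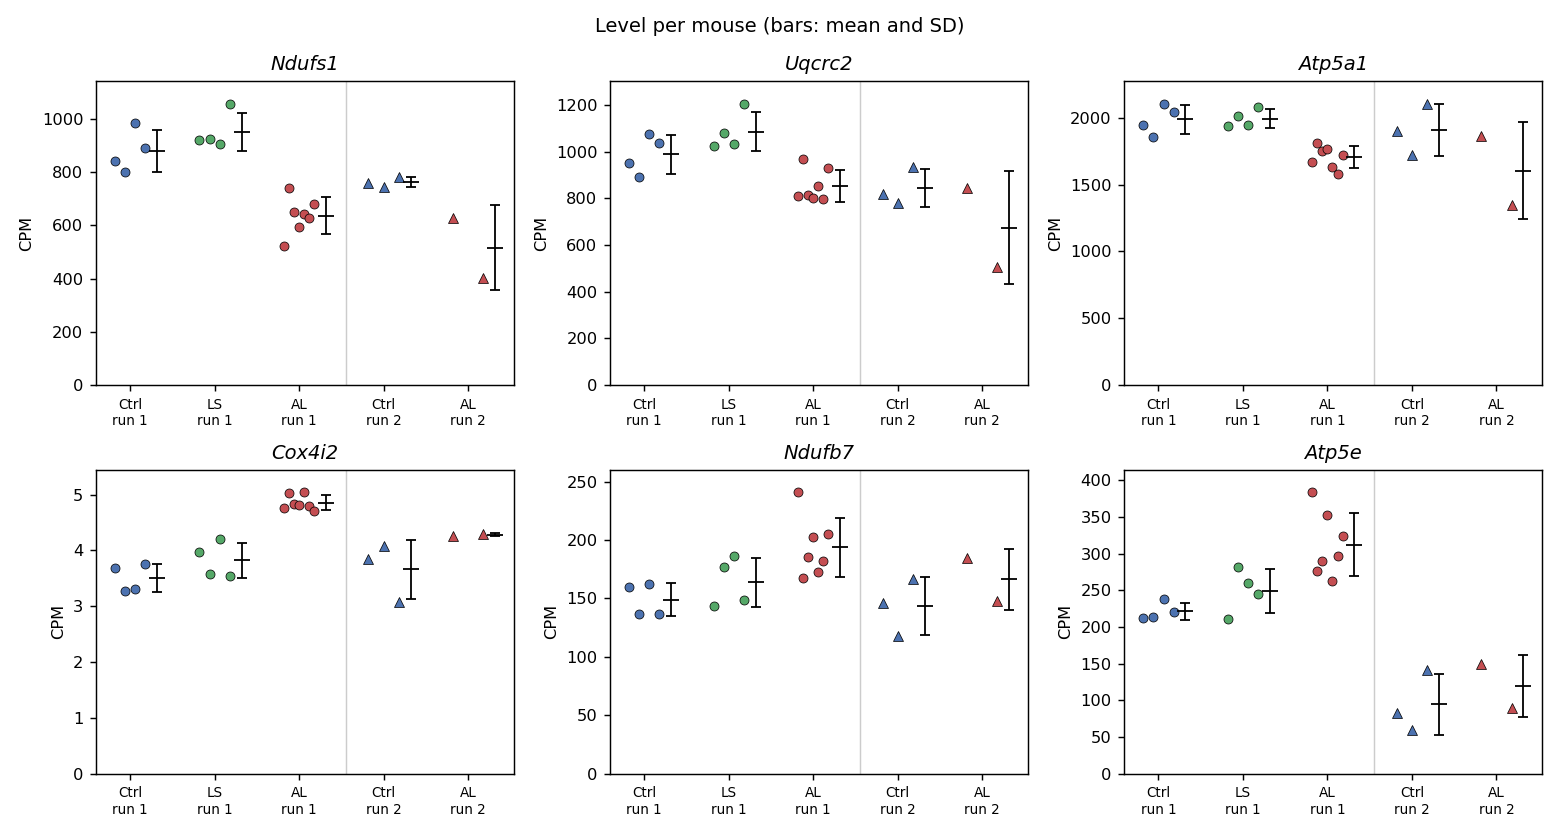
CPM of Ndufs1, Uqcrc2, Atp5a1, Cox4i2, Ndufb7 and Atp5e in each mouse, by group and sequencing run; bars mark the mean and SD of the mice in a group and run. For Ndufs1, AL mice lie below Ctrl mice in both runs and below LS mice, which were only in the first run. Atp5e is lower in all mice of the second run than in any of the first.

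In complex IV, 4 of 17 tested genes were higher in AL than in Ctrl mice (23.5%) and none was lower, beside 10.7% and 15.4% of all genes. Cox4i2 (ENSMUSG00000009876, chromosome 2 at 152754173 to 152765037) had 4.71 to 5.04 CPM with a median of 4.82 in AL mice of the first run. The LS mice had 3.97, 3.58, 4.20 and 3.54 CPM, and the Ctrl mice 3.69, 3.27, 3.32 and 3.76 CPM. AL8 and AL9 of the second run had 4.27 and 4.30 CPM, and the Ctrl mice of that run 3.84, 4.08 and 3.07 CPM. All 9 AL mice were above all LS and Ctrl mice in CPM, at a low level in each group. In the second run the counts were 36 and 50 in AL8 and AL9 and 39, 41 and 40 in the Ctrl mice. AL8 was thus above these Ctrl mice only after scaling. The log2 fold change was 0.40 (SE 0.08, FDR 0.00237) against Ctrl and 0.32 (SE 0.10, FDR 0.0228) against LS by edgeR. The call against Ctrl held without each of the 20 mice in turn, and that against LS in 17 of 20. With the length term neither passed (0.24 and 0.22), and the calls held in 11 and 9 of the 14 other settings tried.

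Cox4i1, the main subunit IV isoform, rose by 0.26 (SE 0.08, FDR 0.0263) against Ctrl. It had 1158 to 1505 CPM with a median of 1184 in AL mice of the first run, where LS mice had 1060, 1177, 1132 and 1104 CPM and Ctrl mice 1025, 1013, 1048 and 1033 CPM. In the second run the groups overlapped, with 1247 and 849 CPM in AL8 and AL9 and 892.5, 794.9 and 1068 CPM in Ctrl mice. Cox5a, which binds beside subunit IV, rose by 0.29 (SE 0.09, FDR 0.0256), and its first-run AL mice, at 308.9 to 405.3 CPM, were above all LS mice (264.5 to 306.7 CPM) and all Ctrl mice (250.7 to 297.0 CPM). Its second-run values overlapped, at 273.0 and 185.3 CPM in AL8 and AL9 and 161.9, 154.7 and 220.2 CPM in Ctrl mice. Cox7a2l, the supercomplex assembly factor, rose by 0.22 (FDR 0.0436). These calls held in 16, 18 and 3 of the 20 fits without 1 mouse, and none held with the length term, where Cox4i1 had 0.10, Cox5a 0.12 and Cox7a2l 0.10.

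Several complex IV subunits exist as a heart and skeletal muscle isoform and a ubiquitous isoform. In the adult heart the muscle isoforms Cox6a2, Cox7a1 and Cox8b predominate over Cox6a1, Cox7a2 and Cox8a, as they did in the first-run mice in CPM per kb. Over all mice none of these 6 passed in AL against Ctrl. Cox8a had -0.42 (FDR 0.143), Cox8b 0.31 (FDR 0.111), Cox6a1 -0.09 (FDR 0.692), Cox6a2 0.21 (FDR 0.0961), Cox7a1 -0.21 (FDR 0.459) and Cox7a2 0.15 (FDR 0.505). Of subunit VIb, Cox6b1 had 0.12 (FDR 0.464), and Cox6b2, a testis form with at most 1.27 CPM here, -0.68 (FDR 0.104).

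Within the first run Cox8a was lower in AL than in Ctrl mice. The Ctrl mice had 44.37, 53.29, 52.15 and 50.15 CPM, the AL mice 19.82 to 37.78 CPM with a median of 28.79, and the LS mice 44.29, 25.33, 22.43 and 30.05 CPM. All AL and LS mice were below all Ctrl mice, LS1 by less than 1 CPM. edgeR gave a log2 fold change of -0.84 (SE 0.18, FDR 0.00545) for AL against Ctrl, past the fold requirement, and -0.72 (SE 0.21, FDR 0.575) for LS against Ctrl. In the second run the AL mice were not below the Ctrl mice, with 40.30 and 49.14 CPM in AL8 and AL9 and 23.03, 26.29 and 43.50 CPM in the Ctrl mice. The difference between the runs was 1.36 (SE 0.32), with the lowest FDR among the subunits in that test, 0.0649.

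The ratio of isoforms in the first run is given as the log2 ratio of CPM per kb. These ratios were chosen after the levels of the single genes were seen, so they are a description with no test. The ratio of Cox8b to Cox8a averaged 3.58 ± 0.366 for the AL mice (SD, n = 7), 3.39 ± 0.559 for the LS mice (n = 4) and 2.37 ± 0.112 for the Ctrl mice (n = 4). In the second run the ratio was 1.85 and 0.74 in AL8 and AL9 and 1.85, 1.33 and 1.70 in the Ctrl mice, and the groups overlapped.

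The ratio of Cox6a2 to Cox6a1 averaged 5.08 ± 0.238 for the AL mice (SD, n = 7), 5.14 ± 0.371 for the LS mice (n = 4) and 4.59 ± 0.126 for the Ctrl mice (n = 4). The ratio of Cox7a1 to Cox7a2 was 1.01 ± 0.07 in AL (n = 7), 1.10 ± 0.161 in LS (n = 4) and 1.22 ± 0.098 in Ctrl mice (n = 4), so its AL value lay below that of Ctrl mice where those of the other pairs of muscle and ubiquitous isoforms lay above. The ratio of Cox4i1 to Cox4i2 was 7.98 ± 0.161 (n = 7) for AL and 8.16 ± 0.105 (n = 4) for Ctrl mice.

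**Figure D3:**
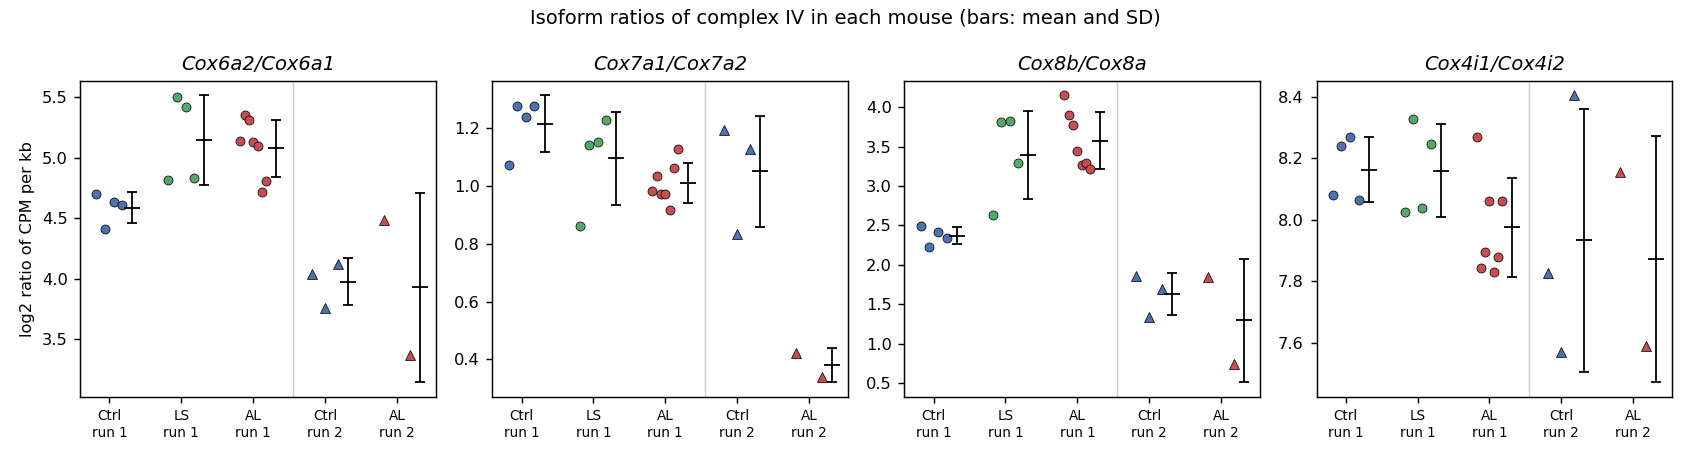
Log2 ratio of CPM per kb of 2 complex IV isoforms (y axis) in each mouse, by group and sequencing run, with bars for the mean and SD. In the first run Cox8b over Cox8a lies at 3.21 to 4.15 in AL and at 2.23 to 2.50 in Ctrl mice; in the second run the groups overlap.

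AL was next compared with LS, which share the genotype and the circulating light chain. They differ in deposits and in the injection, and these cannot be told apart. Of 82 rows, 1 was higher (1.22%) and 4 were lower (4.88%), where 9.78% of all genes were higher and 13.6% lower. The 5 rows were those of Cox4i2, Ndufs1, Uqcrc2 and Atp5a1 given above. Ndufs1 alone also passed the fold requirement, which 8.90% of all genes met. The median was -0.01 with 38 of 82 above 0, and with the length term it was -0.109 with 14 of 82 above 0. With RLE size factors it was 0.0013. The F1 head had a median of -0.209, or -0.269 with the length term.

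Within the first run AL against LS gave 5 higher (6.10%) and 10 lower (12.2%) rows, where 15.6% of all genes were higher and 16.9% were lower. The lower ones included Atp5c1, the γ subunit of the rotor, at -0.24 (FDR 0.00374), Atp5b at -0.20 (FDR 0.00609), and the core subunit Ndufv1 at -0.20 (FDR 0.0196). Each of the 6 F1 head rows passed: Atp5a1 on both rows, Atp5b and Atp5c1 were lower, and Atp5d and Atp5e, the δ and ε subunits, were higher at 0.22 (FDR 0.0395) and 0.33 (FDR 0.0178).

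LS against Ctrl compared mice that secrete the λS light chain, without deposits, with mice that secrete mouse kappa light chains. It gave no call. The knock-in, the human chain and the mouse chains cannot be told apart in this comparison. None of 82 rows passed by edgeR or by DESeq2, 5 had an unadjusted p under 0.05 (5.94% of all genes did), and the lowest FDR was 0.811, where 0.0207% of all genes passed. The median was 0.142 with 68 of 82 above 0, against 0.000321 over all genes, and with the length term it was 0.0838 with 64 above 0. In the first run alone none passed by edgeR, 38 had an unadjusted p under 0.05 where 8.21% of all genes did, the lowest FDR was 0.575, and 0.0210% of all genes passed. AL against Ctrl and LS against Ctrl share the Ctrl mice, so their medians are not independent.

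These genes were lower in the second sequencing run. Among the 7 Ctrl mice, 44 of 82 rows (53.7%) were lower in the second run and none was higher, where 13.5% of all genes were lower and 11.8% higher. Of these 44, 39 were past the fold requirement, and the median was -0.61. With the length term 30 rows were lower and 8 higher, with a median of -0.216, and the all-gene shares with that term are not given. Atp5k had 200.5, 204.5, 226.5 and 212.3 CPM in Ctrl mice of the first run and 20.96, 14.44 and 26.98 CPM in the second. Its 2 sets of values were about an order of magnitude apart, at -3.32 (SE 0.20, FDR 0.00034). Ndufa3 and Ndufa1, small accessory subunits of complex I, had -2.24 (FDR 0.00193) and -2.14 (FDR 0.000824). The count of lower rows was 18 without Ctrl5 and 59 without Ctrl7. Run, animal cohort and depth cannot be told apart in these mice.

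The group comparison was therefore given within each run. In the first run AL against Ctrl gave 27 higher rows (32.9%) and 6 lower ones (7.32%), where 11.0% of all genes were higher and 14.6% lower, with a median of 0.123 that was -0.0152 with the length term. The lower ones were Cox8a, Ndufs1 at -0.46 (FDR 0.00322), Cox5b at -0.42 (FDR 0.0172), both Atp5a1 rows and Atp5b. With the length term the counts were 6 higher and 14 lower, and without the 5 mice with most liver transcripts they were 0 and 0. That last fit leaves 1 first-run Ctrl mouse, assumed to vary like the other groups, and has a median of 0.21 with 66 of 83 above 0, and over all genes 32 higher and 69 lower. The second run held 2 AL and 3 Ctrl mice, and none of 81 rows passed there by edgeR, none had an unadjusted p under 0.05, and 0.128% of all genes passed. The median there was 0.14, but -0.127 without AL8 and 0.382 without AL9, each of which leaves 1 AL mouse.

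A test of whether the AL against Ctrl difference itself differed between the runs called none of the 82 rows, with 4 at an unadjusted p under 0.05, where 0.701% of all genes passed and 15.3% had such an unadjusted p. Cox8a and Cox5b, with 0.90 (SE 0.25, FDR 0.0923), had the lowest FDR. The number of rows called was 12 without AL8, with 1 AL mouse left in the second run, and 3 without Ctrl7. The mean of all tested subunits per mouse, as log2 CPM centred on each gene, over the first run came to 0.205 ± 0.11 for AL (SD, n = 7), 0.221 ± 0.059 for LS (n = 4) and 0.114 ± 0.063 for Ctrl mice (n = 4). In the second run it was -0.231 and -0.782 in the 2 AL mice and -0.587 ± 0.353 (n = 3) in the Ctrl mice.

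**Figure D4:**
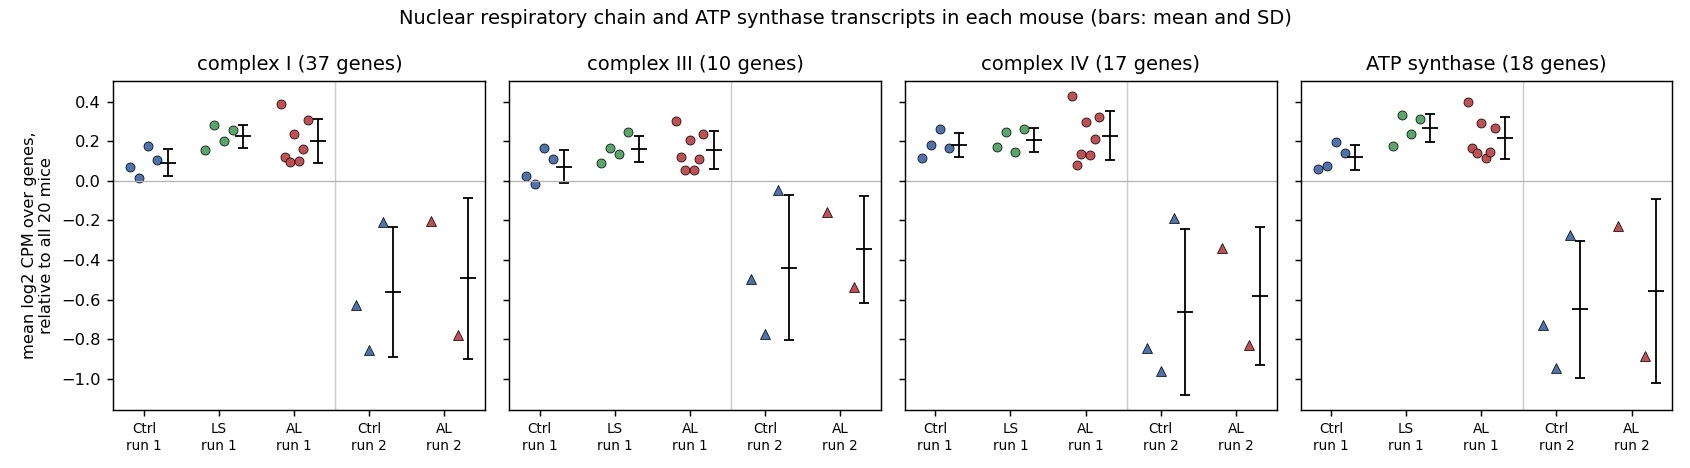
Mean over the tested subunits of each complex of log2 CPM centred on each gene (y axis), one point per mouse, by group and sequencing run, with bars for the mean and SD. The mice of the first run lie near or above 0 in all groups, and those of the second run lie below 0 in every complex, with AL9 and 2 Ctrl mice lowest.

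Transcript length moved with these differences. Across the 82 rows the Spearman correlation of length with the log2 fold change was -0.399 in AL against Ctrl, -0.319 in AL against LS, -0.299 in LS against Ctrl and 0.635 in the second against the first run, and over all genes it was -0.244, -0.200, -0.0427 and 0.168. These are correlations across genes of shared libraries and are given as descriptions. For AL against Ctrl, the 37 rows under 700 nt had a median of 0.163 where all genes of that length had 0.189. The 26 rows of 700 to 1400 nt had 0.155 where all such genes had 0.134. The 19 rows over 1400 nt, among them Ndufs1, Uqcrc2 and Atp5a1, had -0.0361 where all such genes had -0.0117. In each of the 3 length classes the median of the subunits had the sign of the median of all genes for AL against Ctrl. Over 1400 nt the signs differed for LS against Ctrl, at 0.0679 for the subunits and -0.00489 for all genes. They also differed for the second against the first run of Ctrl mice, at -0.168 and 0.0425.

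With the length term 2 rows were higher and 9 lower in AL against Ctrl. The all-gene shares with that term are not given, here or in the other comparisons. Counts of rows with the length term thus have no background beside them. Ndufs1 (-0.52), Uqcrc2 (-0.31) and Atp5a1 (-0.26 and -0.25) were among the lower ones, joined by Atp5b (-0.21), Cox8a (-0.61), Cox6b2 (-0.88), Ndufa9 and Ndufb2. What the length trend stems from was not tested.

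**Figure D5:**
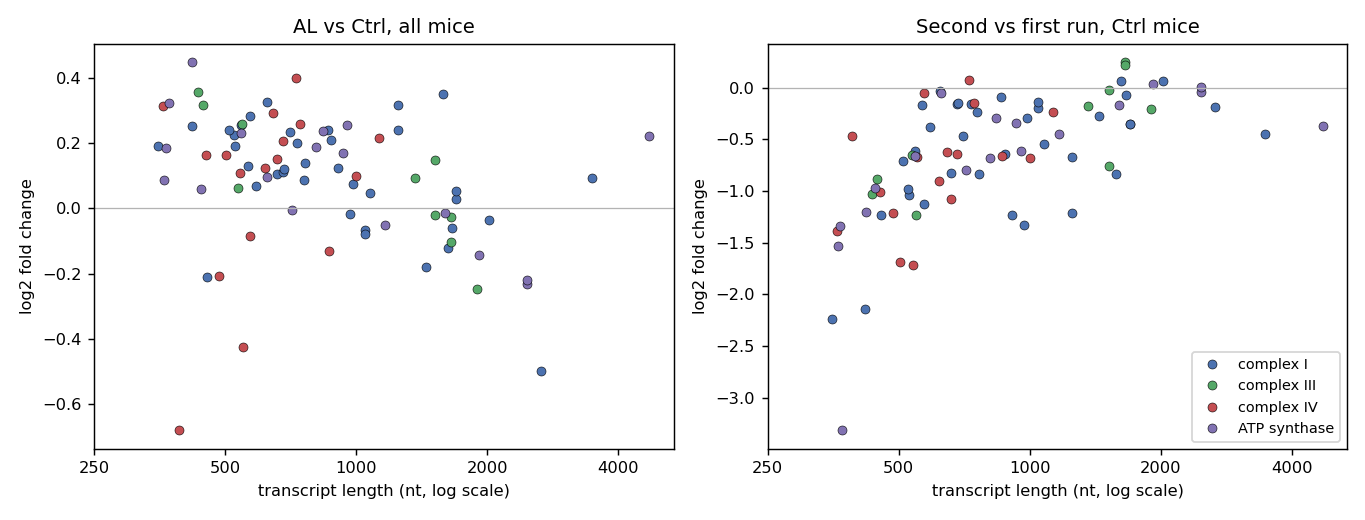
Log2 fold change (y axis) against transcript length in nt (x axis, log scale) for the subunit rows, coloured by complex, in AL against Ctrl and in the second against the first run of Ctrl mice. Short transcripts lie above long ones in AL against Ctrl (medians 0.163 under 700 nt and -0.0361 over 1400 nt) and below them in the second run (-0.974 and -0.168).

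Genes that work with these subunits were examined as lists. Complex II, the succinate dehydrogenase of the chain, had 1 of 4 genes lower, where 15.4% of all genes were lower against Ctrl and 13.6% against LS. This was Sdha, its flavoprotein, at -0.38 (FDR 0.00133) against Ctrl and -0.50 (FDR 0.000869) against LS. Sdha had 958.5 to 1308 CPM in AL mice of the first run. The LS mice had 1518, 1701, 1616 and 1692 CPM and the Ctrl mice of that run 1414, 1358, 1617 and 1577 CPM, without overlap with AL mice. Second-run values of Sdha alone are not given. The summed complex II genes overlapped there, at 2390 and 1630 CPM in AL8 and AL9 and 2430, 2160 and 2660 CPM in Ctrl mice. Sdhb (-0.03), Sdhc (-0.05), Sdhd (-0.08) and Cycs, cytochrome c (-0.05), did not pass against Ctrl.

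The 13 subunits encoded in the mitochondrial genome had a median of -0.241 against Ctrl, with 3 lower and none higher. Against LS it was -0.358, with 4 lower and none higher. Over all genes 15.4% were lower and 10.7% higher against Ctrl, and 13.6% and 9.78% against LS. mt-Nd5, a proton-pumping subunit of complex I, was lowest at -0.82 (FDR 0.000414) and -0.92 (FDR 0.000665). Libraries were made from polyadenylated RNA, which captures mitochondrial transcripts unevenly. The mitochondrial share of all counts was 18.3% to 37.1%.

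Of 17 regulators of respiratory genes and mitochondrial DNA, 8 were lower against Ctrl (47.1%) and 7 against LS (41.2%), where 15.4% and 13.6% of all genes were lower, and none was higher. Ppara, a nuclear receptor of fatty acid oxidation, had -1.23 (FDR 0.000937) and -1.30 (FDR 0.00196). Ppargc1a, the coactivator of mitochondrial biogenesis, had -0.51 (FDR 0.0119) and -0.93 (FDR 0.000709). Ppargc1a stood at 84.47 to 145.3 CPM in AL mice of the first run, at 198.2, 243.3, 196.0 and 151.0 CPM in LS and at 137.8, 180.3, 108.5 and 132.6 CPM in Ctrl mice, so AL mice were below all LS mice and overlapped with Ctrl mice. The calls of Ppargc1a and Tfam against Ctrl were lost with the length term (-0.37 and -0.18) and with ComBat-seq (-0.48 and -0.24). Tfb1m, Esrrg and Tfam, which acts on mitochondrial DNA, were lower at -0.75 (FDR 0.00171), -0.56 (FDR 0.00219) and -0.22 (FDR 0.0266) against Ctrl. Esrra had 0.0001 (FDR 0.999) and Nrf1 0.04 (FDR 0.697).

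Among assembly factors, complex IV had 2 higher (8.0%) and 5 lower (20%) of 25 against Ctrl, near the 10.7% and 15.4% of all genes, and 0 and 5 against LS. Taco1, a translational activator of mt-Co1, had -0.84 (FDR 0.000234) and -0.81 (FDR 0.000813), Lrpprc, which stabilises mitochondrial mRNA, -0.53 (FDR 0.000952) and -0.57 (FDR 0.0019), and Cox15, of heme A synthesis, -0.41 (FDR 0.00257) and -0.49 (FDR 0.00284). Complex I assembly factors had 1 of 17 lower against Ctrl, Acad9 at -0.32 (FDR 0.000294). The 5 ATP synthase assembly factors had none. The inhibitor Atpif1 rose by 0.35 (FDR 0.0366) against Ctrl, and the complex IV paralog Ndufa4l2, linked to hypoxia, by 0.42 (FDR 0.0449). Of 80 cytosolic ribosomal protein genes, also short transcripts, 45 were higher and 1 lower against Ctrl with a median of 0.298. Against LS 2 were higher and 2 lower. Over all genes 10.7% were higher and 15.4% lower against Ctrl, and 9.78% and 13.6% against LS.

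Of the cell type markers, 2 of 10 cardiomyocyte genes (20%) were lower against Ctrl and 3 (30%) against LS, where 15.4% and 13.6% of all genes were, and all 3 tested atrial genes were higher against Ctrl, as 10.7% of all genes were. Of the other lists, 2 of 6 macrophage genes (33.3%) were higher against Ctrl, 6 of 8 liver genes (75.0%) were lower, and no fibroblast, endothelial, red cell or adipocyte gene passed in that comparison. Their part in the subunit results was not tested.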

How the data were processed

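Total RNA of the apical heart was converted to stranded polyadenylated RNA libraries and sequenced as paired-end reads. The authors aligned reads with STAR to GRCm38 and quantified them with Salmon through nf-core/rnaseq, and they deposited estimated counts per gene, merged over 20 mice and not adjusted for run. The 14.2% of values that were not whole were rounded. Genes were filtered with filterByExpr (minimum count 10), scaled by TMM and tested with edgeR 4.0.16 (quasi-likelihood, R 4.3.3) with group and sequencing run as terms, and adjusted by Benjamini-Hochberg over all genes tested. The SE of a log2 fold change was derived from this test, as its absolute value divided by the square root of the F statistic. It is not a separate estimate of the spread. Comparisons were repeated within each run. Total counts were 7867642 to 62668146 per mouse. Replicate numbers of the labels only name mice.

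Values in CPM use TMM-scaled library sizes. Transcript length came from the coding transcript with the longest coding sequence (GENCODE M21), known for 98.6% of genes. The length term is an offset per mouse, from a lowess trend of log2 CPM on length (span 0.3). Alternatives used DESeq2 1.42.0, ComBat-seq of sva 3.50.0, other filters and scalings, GC content, Xist as a covariate, a replicate block, and fits without single mice. The fit was tried on counts simulated for 14345 genes with known changes. In AL against Ctrl it recovered 20% of genes with an absolute log2 change of 0.3 and 68.3% of those with 0.6. In AL against LS it recovered 10% and 55%. The simulated counts held no run effect and no trend with length, and genes of low level were not among those changed. The rates need not hold for the real counts.

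Genes named with values were those called, the 2 of lowest p among those passing per complex and comparison, the core and isoform subunits, and those not tested. Further genes, the isoform ratios, the motifs and the 2 length classes' limits were chosen after values were seen. The subunits and all lists were chosen with earlier results of these data known. One item covered by the naming rule is not reported here.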

Additional observations from a re-analysis of the deposited data

Results flagged for a closer look

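Of 111 groups of 4 to 9 mice examined for a mouse far from the rest, 12 had one by Dixon's test. The usual rate of about 1 in 20 is for independent groups. Here the groups share mice, and those of the 9 AL mice pool both runs, so the 12 cannot be set against that rate. Most were AL9, a second-run library whose scaling factor was 1.30. Among the 9 AL mice AL9 was lowest in the mean of the ATP synthase genes (-0.883 on the centred log2 scale, next lowest -0.228) and of the complex I genes (-0.778, next -0.204). AL9 was also lowest in Atp5a1 on the row ENSMUSG00000116276 (1357 CPM, next 1635), Uqcrc2 (504.2 CPM, next 796.5), Ndufv2 (144.3 CPM, next 279.2) and Cox7a2l (146.3 CPM, next 214.4), and in both Ndufs3 rows (73.67 CPM, next 100.8, and 74.01 CPM, next 102.0). In Cox6a1 it was highest (45.10 CPM, next 28.64). AL8 was highest in Atp5b (4675 CPM, next 3766). Among the 4 LS mice LS4 was highest in Ndufs1 (1057 CPM, next 925.4) and in Cox6b2 (0.848 CPM, next 0.496).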

How the results depend on the processing

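The count of subunits higher in AL than in Ctrl mice (13) was 8 with no filter, 0 with ComBat-seq, 4 with no run term, 7 with Xist as a covariate, 7 with only these groups, 2 with the length term, 7 with the GC term and 0 without the 5 mice with most liver transcripts. The count of lower ones (4) was 0 with ComBat-seq, 2 with no run term, 0 without the 5 mice and 9 with the length term, and the median (0.122) was 0.277 with no run term and -0.038 with the length term. In AL against LS the 5 rows became 0 with ComBat-seq, 1 without the 5 mice and 10 with the length term, and the median was -0.131 with no run term and -0.109 with the length term. The LS against Ctrl median was 0.322 with no run term. In the first run AL against Ctrl gave 6 higher, 14 lower and a median of -0.0152 with the length term, and 0 and 0 without the 5 mice. AL against LS in that run (15) gave 25 and a median of -0.106 with the length term, and 7 without the 5 mice, and the LS against Ctrl median was 0.28 without them. In Ctrl mice the second run had 8 higher rows and a median of -0.216 with the length term. Over all genes ComBat-seq gave 341 higher and 448 lower in AL against Ctrl, where the run term gave 1556 and 2236. Esrra in AL against Ctrl turned to -0.174 with the GC term. The cause of these changes was not tested.

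Leaving out 1 mouse gave 3 to 32 higher and 2 to 5 lower rows in AL against Ctrl, with medians of 0.0629 to 0.197. The higher count was 26 without AL9, 32 without Ctrl7, 3 without AL8, 5 without Ctrl1, Ctrl2 or Ctrl4, 6 without Ctrl3, 7 without AL1, AL4 or AL7, 8 without LS1, LS2, LS4 or Ctrl6, and the lower count 2 without AL9, Ctrl3 or Ctrl4. AL against LS gave 1 (without LS4) to 9 (without AL8), with medians of -0.0456 to 0.0162, and LS against Ctrl 0 throughout, with 0.107 to 0.19. In the first run the ranges were 14 (without Ctrl1; 16 without Ctrl2 or Ctrl4) to 32 higher and 5 to 8 lower in AL against Ctrl (median 0.108 to 0.159), 10 to 17 in AL against LS (-0.0309 to 0.0279) and 0 in LS against Ctrl (0.133 to 0.196). With 1 mouse left in an arm, it was assumed to vary like the other mice. The second run gave 0 to 2 (-0.127 to 0.382), the difference between runs 0 to 12, and Ctrl mice 18 to 59 lower, 0 to 2 higher (-0.802 to -0.45).

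With the replicate number as a replicate block AL against Ctrl gave 5 higher and 4 lower and AL against LS 0 and 4. Same-numbered mice share only a number: over 15 pairs the correlation of deviations was -0.211 to 0.284, over 0.1 in 4.

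In the second run, the shallower one, 3 counts are 0.254 to 0.381 CPM. Most subunits lay well above this level, and the run held only 2 AL and 3 Ctrl mice.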
